A study of Mus musculus with 11 samples.

Results

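The genes described here copy DNA or supply it with deoxynucleotides. A list of 48 such genes was matched by symbol to the probe sets of a mouse expression array, and 47 of them were found (Chaf1a was not), out of 18193 named genes measured. A probe set is a group of short oligonucleotides that together report 1 transcript. Where a gene had several, the one brightest on average over the 11 arrays stands for it. The RNA came from pooled mouse hearts at embryonic day 9.5, on 11 arrays in 3 genotypes. Control hearts were Gata4 flox/+; Nkx2-5 +/+ (n = 3 arrays), with 1 floxed Gata4 allele and no Cre recombinase. Double heterozygous hearts were Gata4 flox/+; Nkx2-5 cre/+ (n = 3), with 1 floxed Gata4 allele and Cre at 1 Nkx2-5 allele. Conditional knockout hearts were Gata4 flox/flox; Nkx2-5 cre/+ (n = 5), with 2 floxed Gata4 alleles and the same Cre allele. All 3 groups thus carried at least 1 floxed Gata4 allele, and both Cre groups also had only 1 unmodified Nkx2-5 allele. The labels do not say whether the Cre allele still makes Nkx2-5. Cre at Nkx2-5 is made where Nkx2-5 is expressed, in cardiac progenitors and heart muscle. Only cells that neither made Cre nor descend from cells that did would keep the floxed gene. No source used here says which cells of the pooled hearts those are. The labels do not say that replicates came from separate litters or pools, so the p-values reflect the spread among these particular samples, and that spread may be technical.

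DNA replication starts at origins. The origin recognition complex (ORC) binds there and, with CDC6 and CDT1, loads the ring-shaped MCM2-7 helicase in G1 phase. CDC45 and the GINS complex join the ring in S phase to make the working helicase, and polymerases, the sliding clamp PCNA and its loader RFC follow behind it. Transcripts of most of these genes rise in cycling cells, many of them under E2F transcription factors. The embryonic heart at this stage grows in part by division of its muscle cells. The series title places its question in proliferation of myocardium derived from the second heart field and in cyclin D2.

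The arrays themselves were not all alike. In CKO replicate 2 the 3' beta-actin control probe set exceeded the 5' one by 1.0 (log2), while this gap, which widens as RNA is shortened, ran from 0.295 to 0.45 elsewhere. CKO replicate 3 was the dimmest array, with an average deposited intensity of 117.2, where the others averaged 166.4 to 175.6. Results are therefore also given without these arrays. Gata4 signal was not lower in the conditional knockout arrays (8.98 in control, 9.31 in double heterozygous and 9.43 in conditional knockout arrays on its brighter probe set), and was called higher than in control (0.45, adjusted p = 0.0324, limma). No source used here says whether that probe set reads the floxed exons, so Gata4 cannot serve as a test of the labels, and the term CKO-labelled is used throughout. Nkx2-5, of which the Cre groups have 1 unmodified allele, averaged 9.48 (double heterozygous) and 9.34 (CKO-labelled). Control arrays averaged 9.87, and both Cre groups lay wholly below control. Ccnd2, the cyclin D2 gene named in the series title, had a log2 difference of -0.48 between CKO-labelled and control arrays (adjusted p = 0.0178, limma). Of 10 cardiomyocyte markers 1 was called, Myh7, which was higher (0.27, adjusted p = 0.0154, limma). Lower means were seen in 6, of which 3 had an unadjusted p under 0.05. Their summed intensity lay between 55517 and 60547 in CKO-labelled, between 56848 and 58189 in control and between 56119 and 58453 in double heterozygous arrays. Quantile normalisation gives every array the same set of values, which holds a sum over very bright genes nearly constant. The sum therefore does not measure the share of heart muscle. In whole hearts, fewer dividing cells and less transcript per cell cannot be told apart.

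Replication genes were lower in CKO-labelled than in control arrays almost throughout the list. Of 47 genes 44 had a lower mean, where 53.3% of all genes did. The median difference was -0.28 on the log2 scale (range -0.73 to 0.05), against -0.02 over all 18193 genes. Values are log2(intensity + 16) after quantile normalisation, and a gene is called where its limma p, adjusted by Benjamini-Hochberg over all 45037 probe sets, is under 0.05. By that rule 4 genes fell and 0 rose, where 0.857% of all genes were called lower and 1.24% higher. They were Pcna, Gins1, Prim2 and Tk1. At an unadjusted p under 0.05 the count was 31 lower and 0 higher, where 9.2% of all genes were lower and 6.33% higher. In 20 of 47 genes all 5 CKO-labelled arrays lay below all 3 control arrays, where 7.59% of all genes did. In the limma F-test over the 3 groups, 2 genes, Pcna and Gins1, were called, where 1.47% of all genes were.

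The count of called genes changed with single arrays. It was 0 without control replicate 1, 2 or 3, 1 without double heterozygous replicate 1 or 3 or CKO replicate 5, and 2 without double heterozygous replicate 2 or CKO replicate 4. It was 7 without CKO replicate 2 and 11 without CKO replicates 2 and 3 together, where 46 of 47 genes had lower means. Calls over all 45037 probe sets moved as well, from 633 with all arrays to 896 and 1370 in these fits. Without control replicates 1, 2 and 3 they were 168, 181 and 187. They were 361, 488 and 459 without double heterozygous replicates 1, 2 and 3, and 527 and 286 without CKO replicates 4 and 5. With the deposited values as they stand 0 genes were called, and with arrays centred on their medians 2 were. In both of these all 47 had lower means, and the median difference was -0.42 and -0.43.

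Averaged over the 47 genes, the difference from the control mean was -0.21, -0.26, -0.25, -0.35 and -0.33 in CKO replicates 1 to 5. It was 0.05, -0.02 and -0.02 in the control arrays and -0.05, 0.04 and -0.04 in the double heterozygous arrays. All 5 CKO-labelled arrays lay below the other 6, and double heterozygous and control arrays overlapped.

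**Figure D1:**
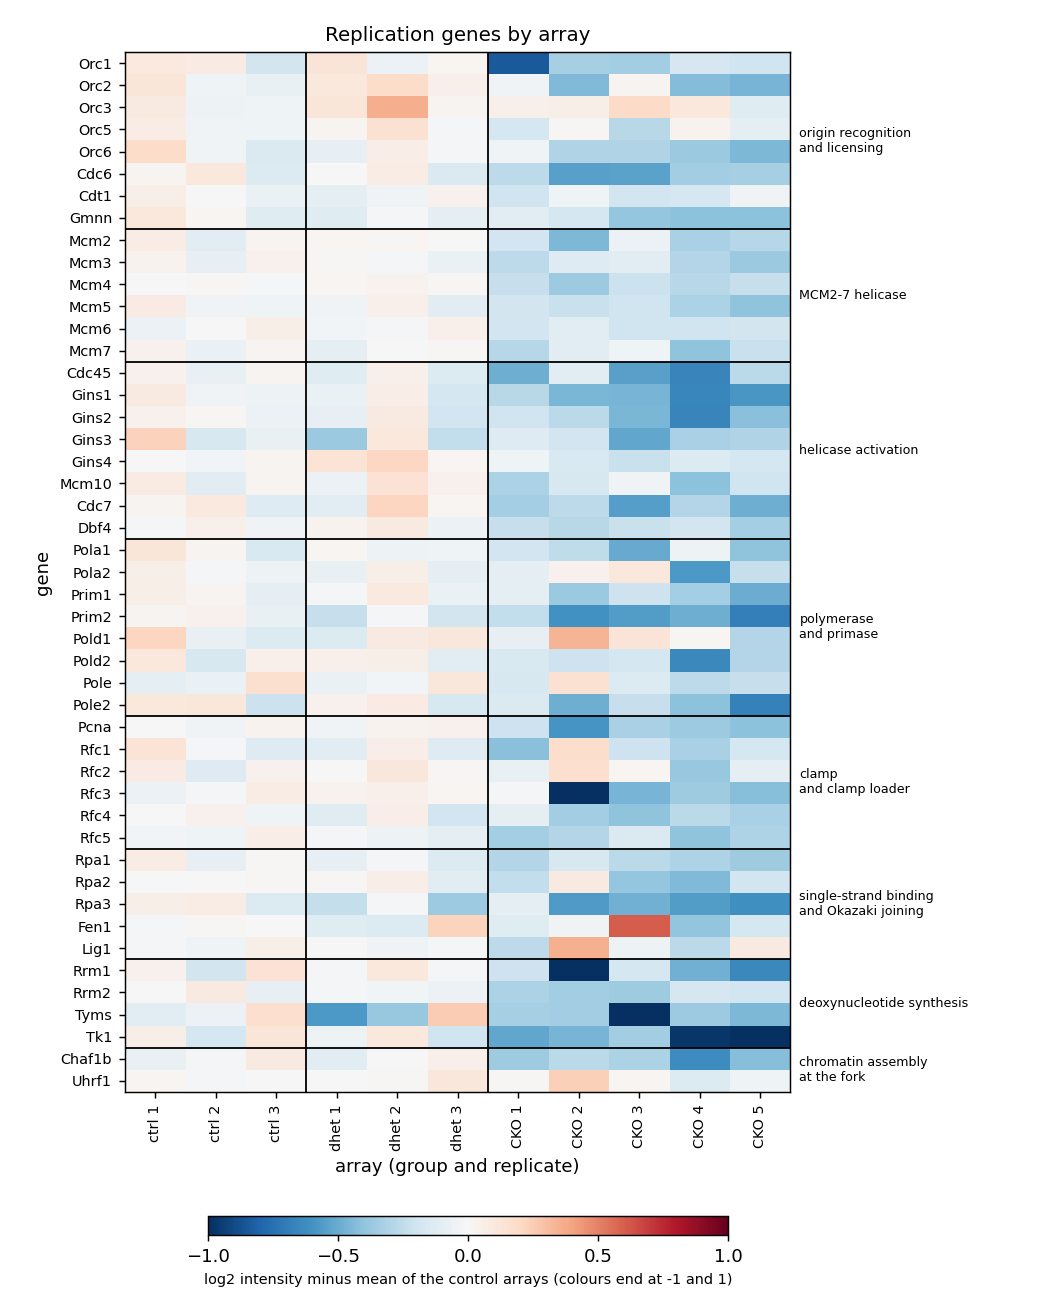
Heat map of the 47 replication genes (rows, grouped by role) in the 11 arrays (columns). Colour is the log2 intensity minus the mean of the 3 control arrays, with colours ending at -1 and 1. The 5 CKO-labelled columns are mostly blue, with the darkest cells at Rrm1 and Rfc3 in CKO replicate 2, Tyms in CKO replicate 3 and Tk1 in CKO replicates 4 and 5.

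Some markers of other cell types also differed. Endothelial and endocardial markers had higher means for 8 of 9 genes in CKO-labelled arrays, and their summed intensity was 3060 to 3586 against 2710 to 2834 in control and 2594 to 2760 in double heterozygous arrays. Kdr (0.68, adjusted p = 0.00684, limma) and Cdh5 (0.63, adjusted p = 0.0188) rose, while Tek, the 1 gene with a lower mean, fell (-0.65, adjusted p = 0.00149) and was at -0.31 in double heterozygous arrays. Erythroid markers had higher means for 8 of 9 genes, with 0 called and overlapping sums (18927 to 24116 against 19045 to 22241 in control and 19381 to 22815 in double heterozygous arrays). Foregut endoderm markers had higher means for 5 of 7 genes and sums of 288.5 to 414.9 against 177.5 to 192.1 in control and 211.9 to 234.4 in double heterozygous arrays, with Foxa1 and Foxa2 at a deposited 0 in 1 array each. Sox17, which endothelial cells express too, was the brightest gene of that list and weighs most in its sums. It was also the 1 called gene of the list (1.32, from a mean of 6.51 to 7.83, adjusted p = 0.000566). Proepicardial and mesothelial markers had lower means for 6 of 8 genes but higher sums (1716 to 2283 against 1463 to 1673, and 1053 to 1295 in double heterozygous arrays). Krt19, an epithelial keratin and the brightest gene of this list, weighs most in the sums. Krt19 rose (1.58, from a mean of 8.86 to 10.44), and the other gene with a higher mean was Wt1 (0.23). Tcf21 (-1.31, adjusted p = 0.0172) and Lrrn4 (-1.20, adjusted p = 0.00615) fell, and were at -0.61 and -0.54 in double heterozygous arrays. In double heterozygous arrays 7 of the 8 genes of this list had lower means than in control (median -0.48), with 0 called. Between CKO-labelled and double heterozygous arrays, 4 of the 8 had lower and 4 higher means (median -0.13). Neural crest and neural markers had higher means for 4 of 8 genes, 0 called, and overlapping sums of 132.3 to 208.9 against 148.7 to 184.1 in control and 134.7 to 247.6 in double heterozygous arrays. No marker on the other lists was at a deposited 0 in any array. The part of these cell types in the replication result was not tested.

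Origin recognition and licensing genes had lower means for 7 of 8 members in CKO-labelled arrays, with a median log2 difference of -0.28 against control. None of the 8 was called, 4 were lower at an unadjusted p under 0.05 in the limma fit, and 0 were higher. Cdc6, the ATPase that brings MCM2-7 to ORC, read 8.12, 8.19 and 7.95 in control, 8.08, 8.16 and 7.94 in double heterozygous, and 7.82, 7.54, 7.55, 7.74 and 7.75 in CKO-labelled arrays. All CKO-labelled values lay below all others, and the difference from control was -0.40 (SE 0.107, adjusted p = 0.0830). Gmnn encodes geminin, which holds CDT1 inactive after licensing. It read 9.75, 9.66 and 9.52 in control, 9.53, 9.63 and 9.56 in double heterozygous, and 9.54, 9.47, 9.26, 9.24 and 9.24 in CKO-labelled arrays. CKO replicate 1 overlapped both other groups, and the difference from control was -0.30 (SE 0.0915, adjusted p = 0.140). Orc3, an ORC subunit, went the other way at 0.05 (SE 0.103) and Cdt1 differed by -0.13. The ORC subunits Orc1, Orc2, Orc5 and Orc6 were at -0.38, -0.27, -0.10 and -0.29.

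The 6 subunits of the MCM2-7 helicase were close to each other. All 6 had lower means, between -0.26 and -0.17, with a median of -0.25, and all 6 were lower at an unadjusted p under 0.05, with 0 called. Mcm4 read 9.74, 9.74 and 9.70 in control, 9.75, 9.76 and 9.74 in double heterozygous, and 9.5, 9.37, 9.51, 9.45 and 9.49 in CKO-labelled arrays. Control and double heterozygous values lay close together and all 5 CKO-labelled values lay below them (-0.26, SE 0.0685, adjusted p = 0.0787). Mcm5 read 10.22, 10.10 and 10.09 in control, 10.10, 10.19 and 10.03 in double heterozygous, and 9.96, 9.92, 9.94, 9.82 and 9.73 in CKO-labelled arrays. Here too the CKO-labelled arrays lay apart from both other groups (-0.26, SE 0.0759, adjusted p = 0.113). Mcm2, Mcm3, Mcm6 and Mcm7 were at -0.26, -0.23, -0.17 and -0.21. In Mcm3 and Mcm6 the CKO-labelled arrays also lay below all control arrays, and in Mcm2 and Mcm7 they overlapped them. Another Mcm7 probe set, singled out after its values were seen, was called at -0.40 (SE 0.0940, adjusted p = 0.0480). A further Mcm6 probe set went the other way at 0.16 and was not called. Without CKO replicates 2 and 3, Mcm3 and Mcm7 were called (-0.31, adjusted p = 0.0408, and -0.30, adjusted p = 0.0323).

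Genes that turn the loaded ring into a working helicase had lower means throughout. The 8 values lay below control (median -0.34, range -0.49 to -0.15), 1 was called and 5 were lower at an unadjusted p under 0.05. Gins1 encodes a subunit of the GINS complex. It read 8.21, 8.09 and 8.08 in control, 8.06, 8.19 and 7.95 in double heterozygous, and 7.85, 7.67, 7.67, 7.48 and 7.55 in CKO-labelled arrays. No CKO-labelled value reached those of the other groups, and Gins1 fell 1.40-fold (log2 difference -0.49, SE 0.106, adjusted p = 0.0353). In 13 of 23 alternatives it no longer passed, including both other scalings (-0.63 on the deposited scale, adjusted p = 0.278, and -0.64 with median centring, adjusted p = 0.0646) and the mean of its probe sets (-0.36, adjusted p = 0.0674). It also failed to pass when control replicates 1 (-0.44), 2 (-0.50) and 3 (-0.51), double heterozygous replicates 1 (-0.49) and 3 (-0.49) or CKO replicates 4 (-0.45) and 5 (-0.46) were left out one at a time. Gins2, its partner in the complex, read 7.84, 7.81 and 7.74 in control, 7.72, 7.88 and 7.60 in double heterozygous, and 7.60, 7.52, 7.34, 7.13 and 7.38 in CKO-labelled arrays. It separated CKO-labelled from control arrays but did not pass (-0.40, SE 0.118, adjusted p = 0.121). Gins3 and Gins4, the other GINS subunits, were at -0.29 and -0.15. Cdc45, which completes the helicase, was at -0.41, and Mcm10, which helps to start it, at -0.22. Cdc7 and Dbf4, the kinase that fires origins and its activating subunit, were at -0.39 and -0.25, with all CKO-labelled arrays below all control arrays in both. Cdc45 was called without CKO replicates 2 and 3 (-0.47, adjusted p = 0.0387), while its other probe set was at 0.28 with all arrays.

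**Figure D2:**
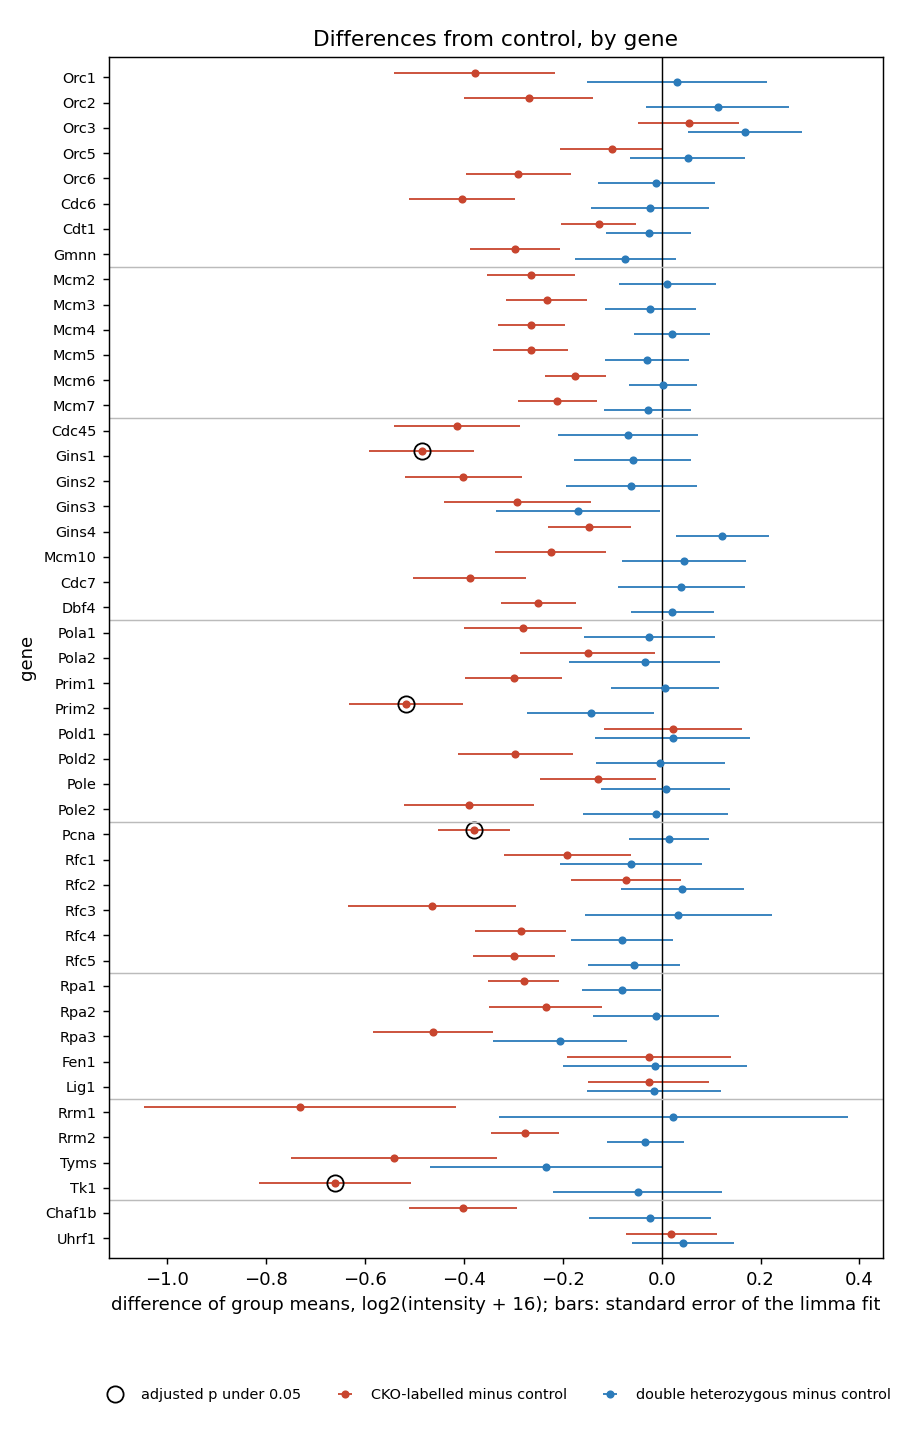
Difference of group means for each of the 47 genes, on the log2(intensity + 16) scale, for CKO-labelled minus control (red) and double heterozygous minus control (blue). Bars are standard errors of the limma fit and rings mark an adjusted p under 0.05. The 4 ringed genes are Gins1, Prim2, Pcna and Tk1, and no blue point is ringed.

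Among polymerase and primase genes, both primase genes had lower means, and the delta catalytic subunit did not. Of 8 genes 7 had lower means (median -0.29), 1 was called and 5 were lower at an unadjusted p under 0.05. Prim2, the large subunit of the primase that lays down RNA primers, read 7.70, 7.72 and 7.60 in control, 7.44, 7.65 and 7.49 in double heterozygous, and 7.42, 7.07, 7.11, 7.18 and 6.99 in CKO-labelled arrays. CKO replicate 1 came close to the lowest double heterozygous array, and the other 4 lay well below. Prim2 fell 1.43-fold against control (log2 difference -0.52, SE 0.115, adjusted p = 0.0381). In 14 of 23 alternatives it no longer passed, including both other scalings (-0.65 on the deposited scale, adjusted p = 0.284, and -0.66 with median centring, adjusted p = 0.0546) and the mean of its 3 probe sets (-0.31, adjusted p = 0.151). It was also lost without any 1 control array (-0.55 to -0.50), any 1 double heterozygous array (-0.52 to -0.51), CKO replicate 4 (-0.53) or CKO replicate 5 (-0.48). Prim1, the catalytic primase subunit, read 9.16, 9.13 and 9.01 in control, 9.09, 9.20 and 9.03 in double heterozygous, and 9.01, 8.73, 8.89, 8.76 and 8.60 in CKO-labelled arrays. Only CKO replicate 1 reached the control range (-0.30, SE 0.0973, adjusted p = 0.164). Pola1 and Pola2, the polymerase alpha subunits that extend the primers, were at -0.28 and -0.15. Pole and Pole2, of the leading-strand polymerase epsilon, were at -0.13 and -0.39. For polymerase delta, which copies the lagging strand, Pold2 was at -0.30 and the catalytic subunit Pold1 at 0.02 (SE 0.140). Pold1 is read on an _x_at probe set, a type that can bind related transcripts, and CKO replicate 2 was its highest array at 7.94. Without CKO replicates 2 and 3 it was at -0.12. Mcm5, Rrm2 and Fen1 are also read on _x_at probe sets, and Mcm3, Mcm7 and Gins2 on _s_at probe sets. With both types passed over where a gene had another, 45 of 47 genes had lower means in CKO-labelled than in control arrays. The median was then -0.30, against -0.02 over all genes.

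The sliding clamp gave the smallest p of the list. Pcna, which encodes the ring that holds polymerases on DNA, read 11.77, 11.73 and 11.80 in control, 11.73, 11.81 and 11.81 in double heterozygous, and 11.56, 11.18, 11.44, 11.41 and 11.36 in CKO-labelled arrays. Control and double heterozygous values were interleaved, and every CKO-labelled array lay below them. Pcna fell 1.30-fold against control (log2 difference -0.38, SE 0.0723, adjusted p = 0.0172). The call held without CKO replicates 2 and 3 (-0.32, adjusted p = 0.0160) but not in 7 of 23 alternatives, including the deposited scale (-0.52, adjusted p = 0.140) and each fit without 1 control array (-0.38, -0.40 and -0.36, adjusted p = 0.103, 0.0835 and 0.107, without replicates 1, 2 and 3). The 5 clamp loader genes had lower means, from -0.46 for Rfc3 to -0.07 for Rfc2, and 0 were called. Rfc5, a small loader subunit, read 8.94, 8.92 and 9.03 in control, 8.94, 8.91 and 8.87 in double heterozygous, and 8.62, 8.67, 8.82, 8.56 and 8.65 in CKO-labelled arrays. The CKO-labelled arrays lay below both other groups (-0.30, SE 0.0833, adjusted p = 0.102). In Rfc3 CKO replicate 2 was lowest at 6.73. CKO replicate 1, at 7.78, lay within the control range of 7.74 to 7.87. CKO replicates 3, 4 and 5 read 7.34, 7.44 and 7.37, below that range. Without CKO replicates 2 and 3 the Rfc3 difference was -0.26. The other Rfc3 probe set was singled out after its values were seen. CKO replicate 2 did not stand apart there (7.49, 7.55 and 7.54 in control against 7.14, 6.89, 6.83, 6.88 and 6.93 in CKO-labelled arrays). This probe set was called at -0.60 (SE 0.109, adjusted p = 0.0129).

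The genes that cover single-stranded DNA and those that join Okazaki fragments had lower means for all 5 members (median -0.23). Of these 0 were called and 2 were lower at an unadjusted p under 0.05. Rpa1, the large subunit of the single-strand binding protein RPA, read 10.33, 10.17 and 10.26 in control, 10.17, 10.23 and 10.12 in double heterozygous, and 9.96, 10.09, 9.98, 9.94 and 9.90 in CKO-labelled arrays. All CKO-labelled values lay below all others (-0.28, SE 0.0709, adjusted p = 0.0700), and it was called without CKO replicates 2 and 3 (-0.32, adjusted p = 0.0261). Rpa3, the small subunit, read 9.26, 9.27 and 9.06 in control, 8.95, 9.18 and 8.83 in double heterozygous, and 9.11, 8.63, 8.72, 8.63 and 8.58 in CKO-labelled arrays. CKO replicate 1 lay within the control range, apart from the 4 others (-0.46, SE 0.122, adjusted p = 0.0818). Rpa2 was at -0.23. Fen1, the flap nuclease, and Lig1, the ligase that seals the fragments, were at -0.02 (SE 0.166) and -0.03 (SE 0.122). Lig1 read 8.95, 8.92 and 9.02 in control and 8.70, 9.32, 8.91, 8.70 and 9.06 in CKO-labelled arrays, on both sides of the control arrays. The Fen1 value hinged on the probe set. On the brightest, an _x_at probe set, CKO replicate 3 read 9.87 and the other CKO-labelled arrays 8.87 to 9.22. On the other, singled out after its values were seen, control arrays read 8.72, 8.67 and 8.75 and CKO-labelled arrays 8.48, 8.32, 8.24, 8.26 and 8.30, and Fen1 was called at -0.39 (SE 0.0881, adjusted p = 0.0398).

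The 4 genes of deoxynucleotide synthesis had the lowest median of the subgroups, -0.60, and all 4 were lower at an unadjusted p under 0.05. Whether they differ from the other subgroups was not tested, and without CKO replicates 2 and 3 their median was -0.42. Tk1 encodes the thymidine kinase of dividing cells, which salvages thymidine in S phase. It read 8.21, 7.97 and 8.27 in control, 8.10, 8.25 and 7.95 in double heterozygous, and 7.63, 7.68, 7.80, 7.17 and 7.16 in CKO-labelled arrays. All CKO-labelled arrays lay below all others, and CKO replicates 4 and 5 were lowest. Tk1 fell 1.58-fold against control (log2 difference -0.66, SE 0.153, adjusted p = 0.0472). In 13 of 23 alternatives it no longer passed, including the deposited scale (-0.79, adjusted p = 0.0957), an offset of 1 (-0.71, adjusted p = 0.0530), each fit without 1 control array (-0.75 to -0.60) or 1 double heterozygous array (-0.66), and those without CKO replicate 4 (-0.58) or 5 (-0.58). Rrm2, the regulated subunit of ribonucleotide reductase, which makes deoxynucleotides from ribonucleotides, read 10.76, 10.85 and 10.68 in control, 10.75, 10.74 and 10.70 in double heterozygous, and 10.45, 10.42, 10.41, 10.59 and 10.57 in CKO-labelled arrays. All CKO-labelled values lay below both other groups, which overlapped, and the difference from control was -0.28 (SE 0.0688, adjusted p = 0.0651). Rrm1, its large subunit, had the lowest value of the list, -0.73 (SE 0.315), and did not pass (adjusted p = 0.327). It read 10.23, 9.999 and 10.33 in control and 9.98, 8.05, 10.01, 9.70 and 9.54 in CKO-labelled arrays, so CKO replicate 2 set the value. On the next brightest Rrm1 probe set CKO replicate 2 did not stand apart (9.98, 9.98 and 9.89 in control against 9.78, 9.66, 9.64, 9.64 and 9.60), and the difference was -0.28 (SE 0.0772, adjusted p = 0.0941). Without CKO replicates 2 and 3 the brightest probe set was called at -0.45 (adjusted p = 0.0396). Tyms, thymidylate synthase, which makes thymidylate anew, was at -0.54 (SE 0.209, adjusted p = 0.263), with CKO replicate 3 at 6.19 and the others at 6.95 to 7.06. Only 1 of the 4 Tyms probe sets had a lower mean in CKO-labelled arrays.

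**Figure D3:**
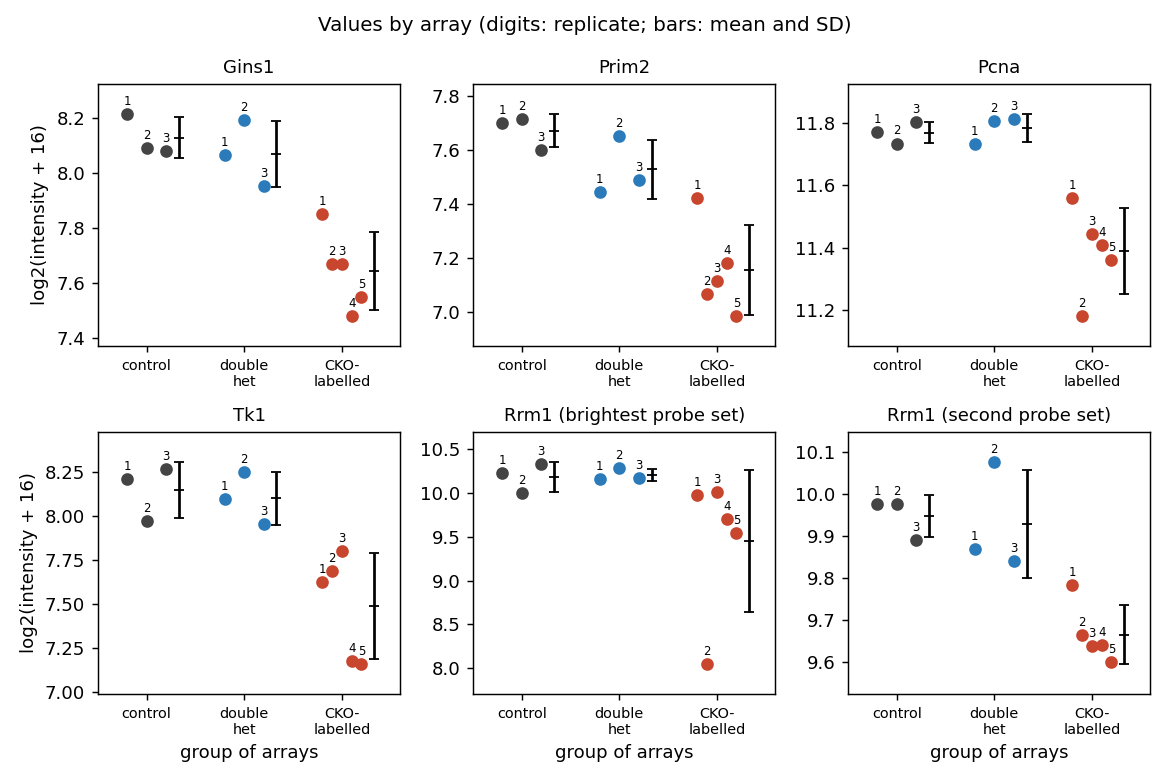
Log2(intensity + 16) in each array for the 4 called genes and for both brightest probe sets of Rrm1. Points are arrays, digits their replicate numbers, and bars the mean and SD of each group. On the brightest Rrm1 probe set CKO replicate 2 stands apart at 8.05, and on the next it lies among the other CKO-labelled arrays at 9.66.

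Of the genes that rebuild chromatin behind the fork, Chaf1b and Uhrf1 were measured. Chaf1b, a subunit of the chromatin assembly factor CAF-1, read 7.5, 7.55 and 7.66 in control, 7.46, 7.57 and 7.62 in double heterozygous, and 7.21, 7.30, 7.25, 6.94 and 7.14 in CKO-labelled arrays. All CKO-labelled values lay below all others (-0.40, SE 0.110, adjusted p = 0.0949), and it was called without CKO replicates 2 and 3 (-0.47, adjusted p = 0.0286). Over the 23 alternatives the Chaf1b difference ran from -0.54 to -0.19, with adjusted p from 0.0126 to 0.508 in limma. The other Chaf1b probe set was at 0.01. Uhrf1 brings the maintenance methyltransferase to new DNA. It read 8.73, 8.69 and 8.71 in control, 8.71, 8.73 and 8.82 in double heterozygous, and 8.72, 8.95, 8.73, 8.58 and 8.66 in CKO-labelled arrays. The groups overlapped and the difference was 0.02 (SE 0.0916, adjusted p = 0.958). Uhrf1, Orc3 and Pold1 were the 3 genes without a lower mean, and each of them was lower with the values as deposited and with arrays centred on their medians.

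**Figure D4:**
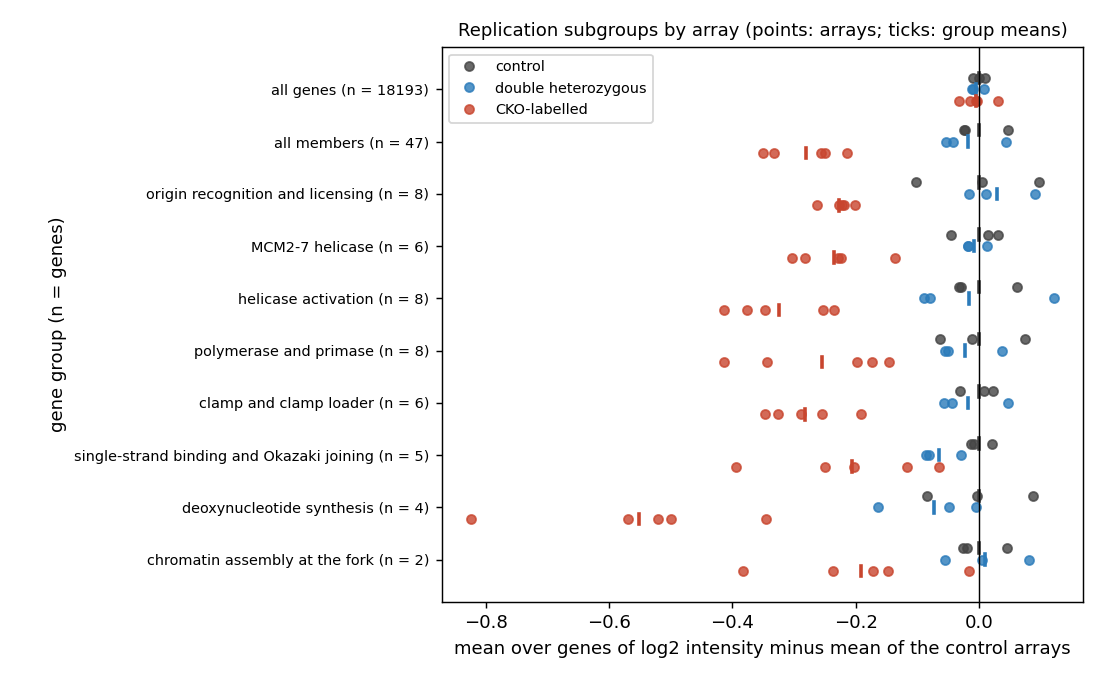
Mean difference from the control mean over the genes of each subgroup (rows, with the number of genes), on the log2 scale, for each array (points) and group (ticks). The CKO-labelled points lie left of all others except in chromatin assembly, where the highest is at -0.02, and in single-strand binding and Okazaki joining, where the highest is at -0.065. Over all 18193 genes the points lie between -0.0319 and 0.0306.

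CKO-labelled arrays were also compared with double heterozygous arrays, which share the Cre allele and differ by 1 floxed Gata4 allele. The 5 CKO-labelled arrays enter both comparisons, so the values are given side by side and are not independent. Of 47 genes 46 had lower means in CKO-labelled arrays, where 52.3% of all genes did (median -0.26, range -0.75 to 0.00, against -0.01 over all genes). Pcna fell (log2 difference -0.39, adjusted p = 0.0290) and was the 1 called gene, where 0.104% of all genes were called lower. Its call was lost in 11 of 23 alternatives, and of the single arrays without any 1 control array (-0.40 to -0.39), any 1 double heterozygous array (-0.42 to -0.38) or CKO replicate 5 (-0.39). At an unadjusted p under 0.05 the count was 32 lower and 0 higher (7.53% of all genes lower and 5.79% higher), and in 25 genes the groups did not overlap (5.54% of all genes). Gins1, Prim2 and Tk1 were at -0.43, -0.37 and -0.61 (adjusted p = 0.115, 0.206 and 0.118). Without CKO replicates 2 and 3 the count of called genes was 3, and over all probe sets 651 were called, against 157 with all arrays.

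Double heterozygous arrays did not differ detectably from control arrays in these genes. Of 47 genes 28 had lower means, where 51.3% of all genes did, with a median of -0.01 and a range of -0.23 to 0.17. The median over all genes was -0.0046. The limma fit called 0 genes, as it did over all 18193 (0%), and 0 had an unadjusted p under 0.05, where 2.91% of all genes did. In 0 of 47 genes did the groups separate, where 6.22% of all genes were apart and lower and 4.9% apart and higher. For Pcna the difference was 0.02 (95% interval -0.16 to 0.19), for Gins1 -0.06 (-0.31 to 0.19), for Prim2 -0.14 (-0.42 to 0.13) and for Tk1 -0.05 (-0.41 to 0.32). All 4 intervals leave room for differences of either sign, and do not show that the groups are alike.

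The other probe sets of these genes give a second reading of the same RNA. The 47 genes had 101 probe sets, 54 of them not used above and belonging to 35 genes. Of these 54, 45 had lower means in CKO-labelled than in control arrays (83.3%, against 51.5% of all 45037 probe sets), with a median of -0.18, and 4 were called (1.41% of all probe sets were), those of Mcm7, Fen1, Rpa1 (-0.42, SE 0.0784, adjusted p = 0.0162) and Rfc3. With the 4 that represent their gene, 8 genes had a called probe set. In 25 of the 35 genes every probe set had a lower mean, and in 10 the probe sets differed in direction. The highest probe set was at 0.31 for Pola2, 0.28 for Cdc45, 0.28 for Tyms, 0.16 for Rrm1 and 0.16 for Mcm6. It was at 0.13 for Mcm10, 0.05 for Orc3, 0.02 for Pold1, 0.02 for Uhrf1 and 0.01 for Chaf1b. No probe set of these 10 genes was called.

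Further genes of the same pathways were described in the same way. Of 76 measured, 64 had lower means in CKO-labelled than in control arrays (median -0.19), 3 were called lower and 0 higher, and 31 were lower and 2 higher at an unadjusted p under 0.05. Over all genes 53.3% had lower means, and 0.857% were called lower and 1.24% higher. At the unadjusted p 9.2% of all genes were lower and 6.33% higher. The same shares apply to each list below. Among 23 other origin and fork factors 1 fell, Dna2, a nuclease-helicase of Okazaki fragment processing (-0.47, SE 0.103, adjusted p = 0.0348), and 19 had lower means. Dna2 read 8.56, 8.49 and 8.42 in control, 8.38, 8.54 and 8.22 in double heterozygous, and 8.12, 8.02, 8.08, 8.06 and 7.81 in CKO-labelled arrays, below both other groups. Among 16 genes of purine and pyrimidine ring synthesis 15 had lower means and 2 fell. They were Prps1, which makes the ribose phosphate donor (-0.44, SE 0.0894, adjusted p = 0.0251), and Atic, the enzyme of the last steps to inosine monophosphate (-0.42, SE 0.0957, adjusted p = 0.0421). Prps1 read 8.71, 8.79 and 8.70 in control, 8.62, 8.77 and 8.62 in double heterozygous, and 8.36, 8.26, 8.42, 8.15 and 8.27 in CKO-labelled arrays, which did not overlap the others. Of 13 other deoxynucleotide and one-carbon enzymes 9 had lower means and 0 were called in the limma fit, with 7 lower and 1 higher at an unadjusted p under 0.05. Dut, the dUTPase that keeps uracil out of DNA, was at -0.30 (adjusted p = 0.128). Of 9 replication-coupled chromatin factors 6 had lower means and 0 were called, with 4 lower and 1 higher at an unadjusted p under 0.05 (Asf1b, a histone chaperone, at -0.40, adjusted p = 0.0948). All 15 S-phase cyclin and E2F genes had lower means (median -0.19) and 0 were called, with 4 lower at an unadjusted p under 0.05. E2f6, a repressor E2F, had the smallest p of these (-0.34, adjusted p = 0.111).

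Promoters were examined because these genes had lower means together. Windows of 300 bases, from 250 before to 50 after a transcription start, were taken from RefSeq (GRCm38.p6), which gave 47 promoters of 39 of the genes. An E2F-type motif (the letters TTCCCGC, the letters TTGGCGC or the letters TTCGCGC, on either strand) was found in 28 of 47 promoters (59.6%), against 8.07% of all 32851 promoters and 11.7% of the 18109 promoters of genes on the array. The letters CCAAT on either strand were found in 55.3%, against 37.4% of all promoters and 37.4% of those of genes on the array. GGGCGG was found in 72.3%, against 35.7% and 52.3%. A GATA-type motif (the letters AGATAA or the letters TGATAA, on either strand) was found in 4 of 47 promoters (8.51%), against 18.6% of all and 12.9% of those of genes on the array. CACGTG was found in 12.8%, against 7.15% and 8.72%. TTTGAA was found in 17.0%, below the 17.9% of all promoters and above the 13.4% of those of genes on the array. Base composition differed between these sets too, with a median GC content of 61.3% in the promoters of these genes, 52.7% in all and 58.3% in those of genes on the array. Its part in the motif shares was not tested. The share of genes with an E2F-type motif was 4 of 5 for the MCM2-7 subunits in the table and 1 of 4 for deoxynucleotide synthesis, whose motif was in the window of Rrm1. A match is a description of letters, not of binding, and no match says only that these letters are not in this window.

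The 150 bases before the start are shown for MCM subunits with a motif there, and for the called genes Pcna and Tk1, which have none in this stretch. Each is written 5′ to 3′ on the strand of its gene, with capitals marking E2F-type motifs.
Mcm6 (chr1:128359706-128359855, minus strand): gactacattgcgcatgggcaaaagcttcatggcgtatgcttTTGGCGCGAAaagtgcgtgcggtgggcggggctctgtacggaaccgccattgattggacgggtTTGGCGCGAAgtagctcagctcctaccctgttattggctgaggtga
Mcm5 (chr8:75109359-75109508, plus strand): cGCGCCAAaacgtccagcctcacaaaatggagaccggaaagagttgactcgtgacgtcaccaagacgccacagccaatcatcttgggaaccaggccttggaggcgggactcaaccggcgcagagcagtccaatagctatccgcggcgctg
Mcm7, the second of 2 promoters (chr5:138171267-138171416, minus strand): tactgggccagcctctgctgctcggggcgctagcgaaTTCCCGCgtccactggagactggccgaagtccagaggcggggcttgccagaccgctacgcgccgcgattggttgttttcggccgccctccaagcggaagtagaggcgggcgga
Pcna (chr2:132253181-132253330, minus strand): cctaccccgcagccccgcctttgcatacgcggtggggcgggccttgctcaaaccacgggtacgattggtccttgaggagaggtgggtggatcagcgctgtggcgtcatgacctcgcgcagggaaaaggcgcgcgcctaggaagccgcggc
Tk1 (chr11:117826015-117826164, minus strand): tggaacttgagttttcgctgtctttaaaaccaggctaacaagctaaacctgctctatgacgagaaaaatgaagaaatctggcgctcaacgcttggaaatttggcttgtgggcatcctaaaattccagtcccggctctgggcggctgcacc
In Mcm6 each capital run holds a pair of overlapping matches, 1 on each strand. The first begins 109 and the last 43 bases before the start. In Mcm5 the match begins 149 bases before the start and in the second Mcm7 promoter 113. Mcm6 had the smallest difference of the 6 ring subunits (-0.17) and Pcna, with no match in this stretch or elsewhere in its window, was called. Presence of the motif and size of the difference were not tested against each other.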

How the data were processed

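The authors deposited linear intensities, 1 value per probe set and array, and PLIER, which summarises a probe set's oligonucleotides, is the only tool in the submitters' processing notes. Per the labels' protocols 50 ng of RNA was amplified and biotin-labelled. Background correction, scaling between arrays and detection calls are stated in no source used here. An offset of 16, which shrinks differences of dim genes, was added before log2 was taken, and arrays were quantile normalised because their medians spanned 0.466 (limit 0.2). The 64 control probe sets were left out of the tests. The 3 genotypes were compared two-sided in 1 fit of limma 3.58.1 (R 4.3.3) with an intensity trend, and p-values were adjusted by Benjamini-Hochberg over 45037 probe sets, with no intensity filter. The fit was tested on simulated data. The number of arrays limits the precision.

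Symbols came from the platform's annotation table: 34945 tested probe sets had 1 symbol, 932 several and 9160 none, and only the first were named. The genes, subgroups and further lists were chosen with earlier results of these data known. Named with all values were genes called in any comparison and the 2 with the smallest p per subgroup in CKO-labelled against control arrays, and others only for an extreme or opposed value or where said. Of the further lists up to 4 called genes, or the 1 with the smallest p, were named. Replicate numbers are shared between groups, but no label gives them a meaning. Alternatives covered the offset, scaling, filter, probe set, variance model, array weights, samples and replicates.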

Additional observations from a re-analysis of the deposited data

Results flagged for a closer look

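For each gene and subgroup mean the 5 CKO-labelled arrays were searched for 1 array far from the other 4 (Dixon's test at 95%). Of 56 sets of 5 values 6 were picked out, where chance gives about 1 in 20. For Orc1, CKO replicate 1 read 5.17 and the others 5.66 to 5.84. For Mcm6, CKO replicate 2 read 10.48 and the others 10.38 to 10.40. For Pold2, CKO replicate 4 read 8.07 and the others 8.42 to 8.56. For Rpa3, CKO replicate 1 read 9.11 and the others 8.58 to 8.72. For Rrm1, CKO replicate 2 read 8.05 and the others 9.54 to 10.01. For Tyms, CKO replicate 3 read 6.19 and the others 6.95 to 7.06. Of these 6 values 2 are from CKO replicate 2 and 1 from CKO replicate 3, the arrays with the high beta-actin ratio and the low mean intensity. Their causes were not tested.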

How the results depend on the processing

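Over 23 alternatives to the main processing, 40 to 47 of the 47 genes had lower means in CKO-labelled than in control arrays and 42 to 47 against double heterozygous arrays, and 0 were called higher. The median difference against control was between -0.43 and -0.24. With the values as deposited it was -0.42 and with median centring -0.43, and against double heterozygous arrays -0.37 and -0.42, with -0.20 in the fit with a replicate block. Without 1 array it was -0.29 to -0.24 against control and -0.28 to -0.23 against double heterozygous arrays.

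Counts of called genes moved far more than the differences. Against control (main count 4), 10 were called with the filter on dim probe sets, 8 as the mean of probe sets, 21 with array weights, 11 without CKO replicates 2 and 3, 2 with median centring, and 0 with the values as deposited, without the intensity trend and with only the 2 groups compared. Against double heterozygous arrays (main count 1) the counts were 2 with the filter, 4 with array weights, 3 without CKO replicates 2 and 3, and 0 on the deposited scale, without the trend and with only the 2 groups. In the F-test (main count 2) they were 6 with the filter, 5 as the mean of probe sets, 11 with array weights, 5 without CKO replicates 2 and 3, 0 on the deposited scale and 0 without the trend. The plain one-way F-test that the series description names called 1 after adjustment and 29 at an unadjusted p under 0.05. The share of all genes passing that plain test is not given here, so the 29 cannot be read against a general rate. Without 1 array at a time the counts were 0 to 7 against control, 0 to 2 against double heterozygous arrays and 1 to 4 in the F-test. The fewer probe sets tested with the filter, and the lower weight of CKO replicates 2 and 3 (0.422 and 0.404), are part of how those settings are built. The cause of the other changes was not tested. Over all probe sets the calls against control were 633, against 92 as deposited, 368 after centring and 2389 with array weights, and the lower share was 258 of 633, 47 of 92, 226 of 368 and 1175 of 2389. They were 919 of 22519 probe sets with the filter, 462 of 18193 genes as the mean of probe sets and 1370 without CKO replicates 2 and 3. Without the trend they were 281 and with only the 2 groups 263. Against double heterozygous arrays they were 157, against 234 with the filter, 619 with array weights and 651 without CKO replicates 2 and 3. Double heterozygous against control arrays gave 0 called genes of the list in every alternative.

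With the replicate number as a block, 0 genes of the list were called in either CKO comparison or the F-test. Same-numbered arrays deviated together with correlations of -0.056 to 0.15, so the numbers are not taken to pair them. Of 1104 single-gene values under an alternative, 58 lost a call, 35 gained one and 0 changed sign with a call.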
